A study of Mus musculus with 12 samples.

Results

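The 33 genes described here encode the machinery with which cells display peptides to T cells on MHC class I and class II molecules. They were taken by name from 41388 genes counted in each of 12 mouse brain RNA-seq libraries, and all 33 had a single matching entry. By role they comprised 11 genes for the class I light and heavy chains, 12 for class I peptide processing and loading, and 10 for the class II pathway. All mice were C57BL/6 carrying floxed Bmal1 (Bmal1 fl/fl), which encodes a core clock transcription factor, and all were given tamoxifen at 2 months of age, 2 mg daily over 5 days. At 7 months brains were collected, and cells held by magnetic beads against ACSA-2, a surface epitope of astrocytes, were separated from the remaining brain cells, called flowthrough. Astrocyte knockout (aKO) animals were Cre+, with a tamoxifen-inducible Cre under the Aldh1l1 promoter, which drives it in astrocytes. Wild type (WT) animals were Cre-, so their Bmal1 stayed floxed. The isolated astrocytes came from 5 aKO animals (203, 205, 208, 221, 222) and 3 WT animals (201, 202, 265). The flowthrough came from 2 aKO animals (203, 205) and 2 WT animals (201, 202), so 4 animals gave both fractions. The astrocyte library of animal 202 was WT by its title and Cre+ in its genotype field, and it was kept as WT.

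Libraries held 21816637 to 62655238 counts in astrocytes and 33019572 to 53868165 in flowthrough. The whole-gene level of Bmal1 (symbol Arntl) was 10.5, 25, 8.99, 12.5 and 5.05 CPM, or counts scaled to a common library total, in aKO astrocytes 203, 205, 208, 221 and 222, against 3.50, 6.80 and 2.13 CPM in WT astrocytes 201, 202 and 265. A whole-gene count sums all exons, so it does not check the deletion of a floxed segment. Of 12 astrocyte markers, 10 were called higher in astrocytes than in flowthrough, with summed levels of 3105 to 14790 CPM in astrocytes and 247 to 5201 CPM in flowthrough. The summed level of 16 microglial markers was 502 to 1011 CPM in astrocytes and 10981 to 16932 CPM in flowthrough, and none of the 16 was at 0 in all libraries of either fraction.

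Class I molecules pair a heavy chain with beta-2-microglobulin (B2m) and carry peptides that the proteasome cuts in the cytosol and the TAP transporter moves into the endoplasmic reticulum. Class II molecules carry peptides made in endosomes, where the invariant chain (Cd74) holds the groove until H2-DM exchanges its remnant for a peptide, a step that H2-O restrains. Nearly all nucleated cells can make class I, whereas class II is mostly a property of B cells, dendritic cells and macrophages, and in the resting brain both are low in neurons and glia. Nlrc5 and Ciita are the transactivators of class I and class II genes, and both act through a promoter module with X and Y boxes shared by both families.

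Of the 33 genes, 23 lie on chromosome 17 between positions 33915899 and 37274484 (GRCm38), in and around the MHC. The other 10 lie on other chromosomes. RefSeq (GRCm38.p6) promoter windows, from 250 bases before to 50 after a start site, were at hand for 27 of the 33 genes (30 windows). The others were H2-T24, H2-Ab1, Tap2, Nlrc5, Ciita and Cd74. The windows of H2-DMa end at 34122881 and 34125567, ahead of the start of the counted gene at 34135182, so they may not hold its promoter. They are counted among the class II windows below, and the second holds a CCAAT. Searched on both strands, CCAAT, the Y box core, was in 90.9% of class I chain windows, 45.5% of processing windows and 87.5% of class II windows, against 37.4% of all 32851 windows. TGACG, the core of the cyclic AMP response element and of the X2 box, was in 72.7%, 45.5% and 12.5% of those windows, against 20.8% of all windows. By gene, it was in 7 of 10 class I chain genes, 4 of 10 processing genes and 1 of 7 class II genes, against 6228 of 27025 genes. Some windows share sequence and so count a site more than once. The windows of H2-K1 overlap each other, as do those of Psme2, and the window of Psmb9 overlaps that of Tap1. GNAACNGAT, an X1 box form, was found only in H2-Eb1 and H2-DMb1 among the members and in 2.05% of all windows. An interferon-stimulated response element form, GAAA with 2 bases of any kind before the next GAAA, was in B2m, H2-T22, H2-T23, Psme1 and Erap1, and in 3.44% of all windows. CACGTG, the E box form that BMAL1 with CLOCK binds, was in Calr, Psmb10 and Erap1, 3 of the members' 30 windows, and in 7.15% of all windows.

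In B2m, H2-K1, H2-D1, H2-M3, H2-Q7 and H2-Aa, a TGACG stood 24 to 26 bases ahead of an ATTGG, the reverse complement of CCAAT, counted from first base to first base. An offset of 22 to 28 bases on one strand, a search made after these sequences had been read, was found in 0.329% of all windows. The stretches below set class I genes that hold this arrangement beside 4 class II genes, of which H2-Aa alone holds it. Each runs 5′ to 3′ from 45 bases before the ATTGG to 30 bases after it. Capitals mark matches to the searched motifs on either strand.
B2m (chr2:122147589-122147668, plus strand): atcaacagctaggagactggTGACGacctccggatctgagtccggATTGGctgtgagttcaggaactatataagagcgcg
H2-K1 (chr17:34000329-34000408, minus strand): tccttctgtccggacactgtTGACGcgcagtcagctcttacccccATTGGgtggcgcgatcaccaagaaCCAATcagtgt
H2-D1 (chr17:35262973-35263052, plus strand): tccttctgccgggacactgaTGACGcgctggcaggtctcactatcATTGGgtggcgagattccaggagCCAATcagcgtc
H2-Q7 (chr17:35439070-35439149, plus strand): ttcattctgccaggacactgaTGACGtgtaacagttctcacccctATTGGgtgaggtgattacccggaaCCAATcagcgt
H2-Aa (chr17:34287837-34287916, minus strand): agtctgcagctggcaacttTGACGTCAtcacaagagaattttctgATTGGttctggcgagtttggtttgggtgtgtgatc
H2-Eb1 (chr17:34305763-34305842, plus strand): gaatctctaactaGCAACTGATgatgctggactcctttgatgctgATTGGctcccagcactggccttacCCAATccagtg
H2-Oa (chr17:34092291-34092370, plus strand): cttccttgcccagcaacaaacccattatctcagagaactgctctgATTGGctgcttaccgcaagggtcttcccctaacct
H2-Ob (chr17:34238803-34238882, plus strand): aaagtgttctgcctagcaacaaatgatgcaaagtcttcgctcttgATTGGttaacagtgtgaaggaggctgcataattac
The last 3 belong to class II genes and hold the ATTGG without a TGACG in front of it. In H2-Eb1 an X1 box form stands there instead. A match of letters is a description of the sequence and does not show that a factor binds there.

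Per length of gene, B2m was the highest of the 33 genes in both fractions. Its level was 1071 ± 371 CPM per kilobase of gene (RPKM) in astrocytes and 3547 ± 1566 RPKM in flowthrough (SD, n = 8 and n = 4 libraries). Cd74 was second, at 218 ± 107 RPKM in astrocytes and 1022 ± 736 RPKM in flowthrough. In astrocytes Calr, which folds class I heavy chains, followed at 98.9 ± 48.4 RPKM, then Psme2, a proteasome activator subunit, at 66.4 ± 27.5 RPKM. Calr stood at 78.0 ± 43.8 RPKM and Psme2 at 144 ± 35.8 RPKM in flowthrough. The classical class II chain H2-Aa was at 47.8 ± 22.5 RPKM in astrocytes and 203 ± 125 RPKM in flowthrough. The classical class I chain H2-K1 was at 35 ± 16.2 RPKM in astrocytes and 47.7 ± 2.95 RPKM in flowthrough. The transactivators were among the lowest. Nlrc5 was at 0.288 ± 0.152 RPKM in astrocytes and 0.354 ± 0.0604 RPKM in flowthrough, and Ciita was at 0.105 ± 0.0635 RPKM in astrocytes and 0.166 ± 0.116 RPKM in flowthrough.

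Astrocytes held less class II RNA than flowthrough, and the difference reached 9 of the 10 class II genes. Of the 33 genes, 16 were called lower in astrocytes and 0 higher by edgeR's quasi-likelihood test at a Benjamini-Hochberg adjusted p under 0.05 over 20637 genes. Of all genes tested, 8.52% were called lower and 8.52% higher, 17% in all. Class I chains were called lower in 3 of 11 cases and processing genes in 4 of 12. The median log2 fold change was -2.54 for class II, -0.97 for processing genes and -0.82 for class I chains, against 0.07 over all genes tested. In all, 32 of 33 estimates were below 0. In bulk RNA, fewer cells of a type and less RNA per cell cannot be told apart.

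**Figure D1:**
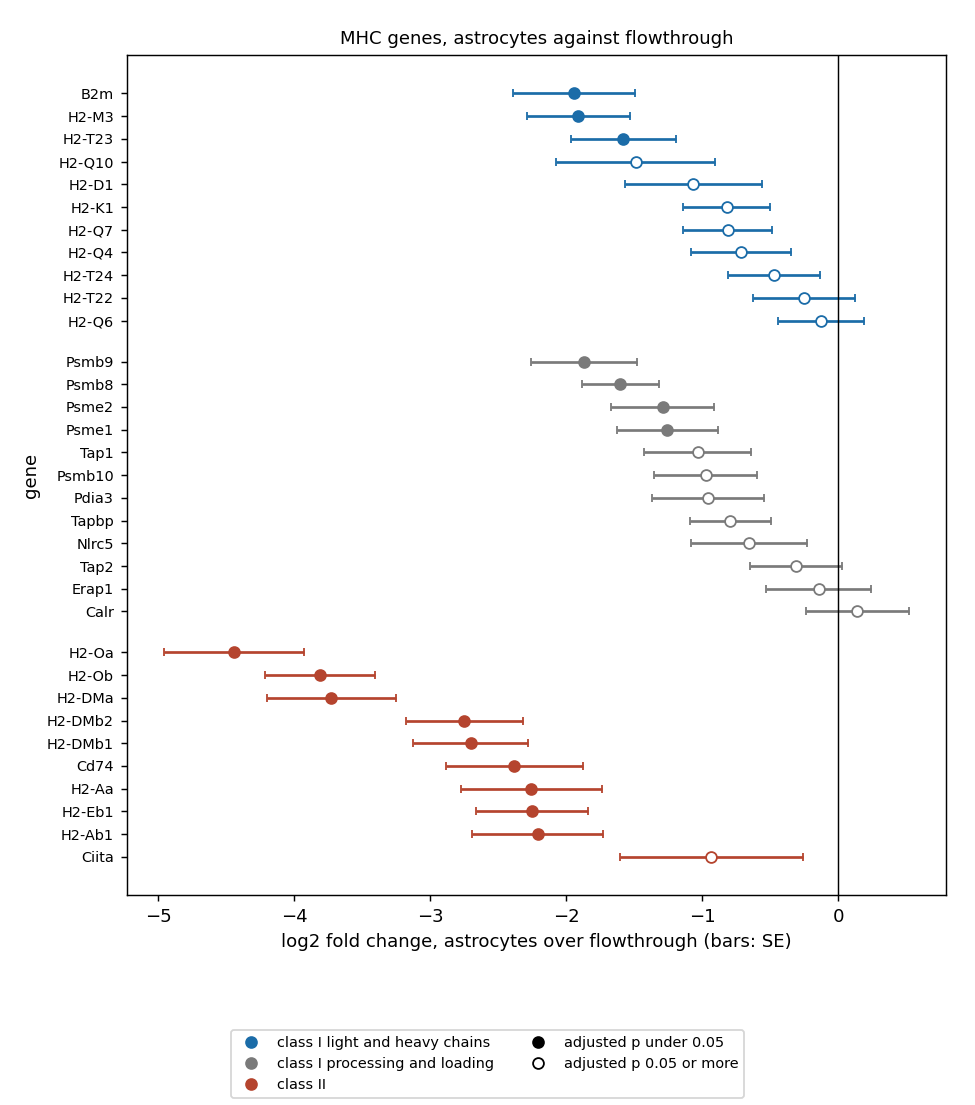
Log2 fold change (x axis) of each of the 33 genes (y axis) in astrocytes over flowthrough, with bars for the SE, 8 against 4 libraries; filled points have an edgeR adjusted p under 0.05. Class II genes other than Ciita lie between -4.44 and -2.21, while class I chains lie between -1.94 and -0.13.

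The genes of the peptide editors H2-DM and H2-O had estimates of -4.44 to -2.70, against -2.26 to -2.21 for the classical class II chains, a difference between genes that was not tested. H2-Oa, the alpha chain of the DM inhibitor H2-O, had 1.01, 0.887, 1.18, 0.390 and 0.957 CPM in aKO astrocytes 203, 205, 208, 221 and 222, and 0.798, 0.480 and 2.41 CPM in WT astrocytes 201, 202 and 265. In flowthrough it had 21.8 and 4.48 CPM in aKO 203 and 205 and 40.2 and 17.0 CPM in WT 201 and 202. The fractions did not overlap, and the log2 fold change was -4.44 (SE 0.51, edgeR adjusted p = 1.83e-05), the largest decrease among the 33 genes. H2-Ob, its beta chain, ranged from 0.520 to 1.5 CPM in astrocytes (median 1.01) and had 12.5, 5.48, 19.3 and 17.8 CPM in flowthrough aKO 203, aKO 205, WT 201 and WT 202. Its fold change was -3.81 (SE 0.40, edgeR adjusted p = 8.58e-06), again without overlap. H2-DMa, the alpha chain of the peptide exchange factor, ranged from 8.21 to 28.9 CPM in astrocytes (median 19.3) and had 246, 55.9, 406 and 192 CPM in the flowthrough libraries in the same order. Its fold change was -3.73 (SE 0.47, edgeR adjusted p = 4.60e-05), and the fractions were apart.

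Both DM beta chains fell as well. H2-DMb1 ranged from 4.61 to 23.4 CPM in astrocytes and from 17.7 to 126 CPM in flowthrough (log2 fold change -2.70, SE 0.42, edgeR adjusted p = 0.000336). H2-DMb2 ranged from 0.723 to 2.63 CPM in astrocytes and from 2.15 to 18.7 CPM in flowthrough (-2.75, SE 0.43, edgeR adjusted p = 0.000323). The 2 genes are near copies of each other, so reads may be split between them in a way that the sources used here do not give. In both genes flowthrough aKO 205 was the one flowthrough library within the astrocyte range.

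The classical chains and the invariant chain also fell. H2-Aa, the I-A alpha chain, had 37.0, 75.4, 117, 80.9 and 131 CPM in aKO astrocytes 203, 205, 208, 221 and 222, and 131, 23.8 and 121 CPM in WT astrocytes 201, 202 and 265. Its flowthrough levels were 483 and 91.9 CPM in aKO 203 and 205 and 637 and 313 CPM in WT 201 and 202. Flowthrough aKO 205 again lay inside the astrocyte range. The fold changes were -2.26 for H2-Aa (SE 0.52, edgeR adjusted p = 0.00652), -2.21 for the I-A beta chain H2-Ab1 (SE 0.48, 0.00467) and -2.25 for the I-E beta chain H2-Eb1 (SE 0.41, 0.00127). H2-Ab1 ranged from 4.53 to 46.6 CPM in astrocytes and from 62.1 to 127 CPM in flowthrough, and H2-Eb1 from 10.6 to 56.9 CPM in astrocytes and from 60.6 to 315 CPM in flowthrough. Neither overlapped. Cd74 ranged from 77.9 to 535 CPM in astrocytes (median 342) and had 1342, 255, 2787 and 1382 CPM in flowthrough aKO 203, aKO 205, WT 201 and WT 202, with a fold change of -2.38 (SE 0.50, edgeR adjusted p = 0.00380). Ciita had 0.030 to 0.942 CPM in astrocytes and 0.444 to 1.76 CPM in flowthrough, or 1 to 59 counts a library, and its estimate of -0.93 (SE 0.67, edgeR adjusted p = 0.360) did not pass the test.

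**Figure D2:**
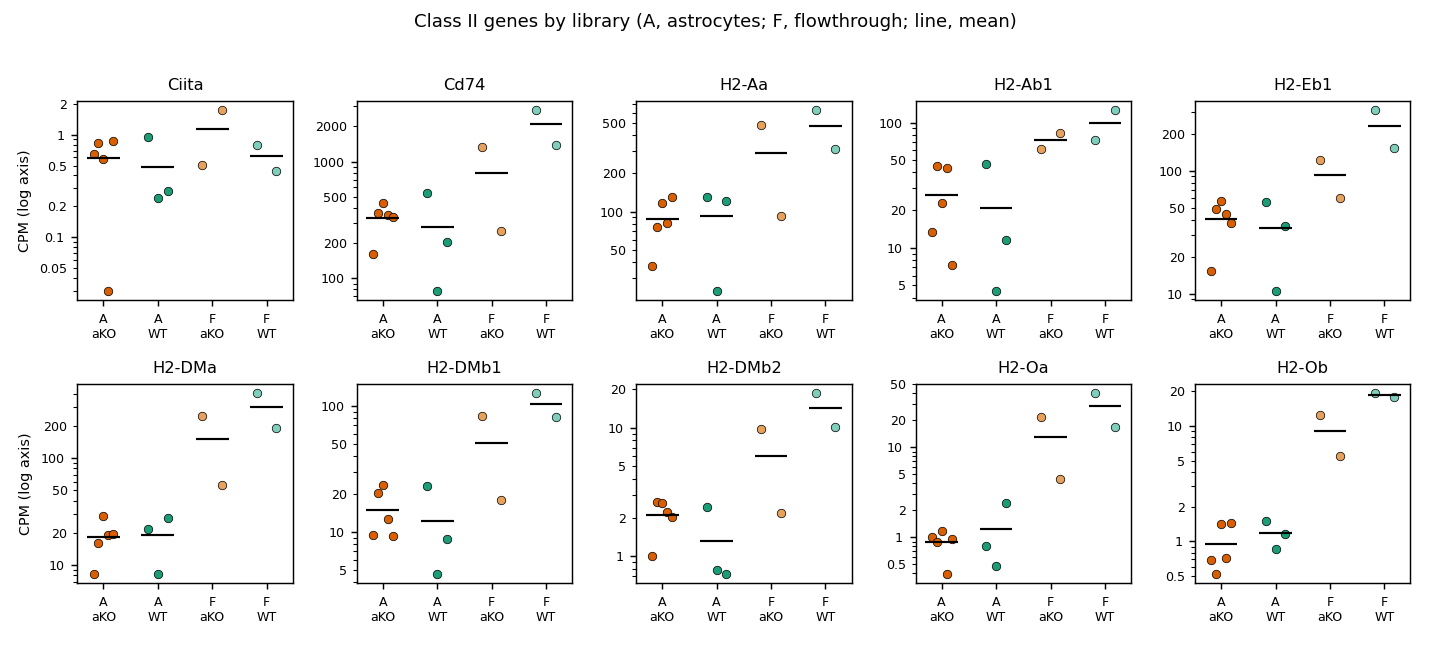
CPM (y axis, log scale, own range in each panel) of the 10 class II genes in each library, by fraction and genotype on the x axis; points are libraries and lines are group means. H2-Ab1, H2-Eb1, H2-DMa, H2-Oa and H2-Ob are lower in all 8 astrocyte libraries than in any of the 4 flowthrough libraries.

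Without flowthrough aKO 203 the H2-Aa call was lost (-1.51, edgeR adjusted p = 0.0606), and the estimates of Cd74, H2-DMa, H2-DMb1, H2-DMb2 and H2-Oa shrank to -1.63, -3.08, -2.01, -2.08 and -3.75, all 5 still called. Over the 4 animals that gave both fractions alone, without a block, the estimates of H2-Aa and H2-DMa were -2.88 and -4.35.

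Within a library, the ratio of H2-DMa to H2-Aa in RPKM was 0.169 to 0.394 in astrocytes and 0.581 to 0.728 in flowthrough. That of H2-Oa to H2-Aa was 0.00687 to 0.0388 in astrocytes and 0.0643 to 0.0900 in flowthrough. Neither overlapped between fractions, and both held in flowthrough aKO 205, at 0.694 and 0.0695. The ratio of H2-Ob to H2-Aa overlapped, at 0.00410 to 0.0213 in astrocytes and 0.0154 to 0.0354 in flowthrough. So did those of Cd74 (2.23 to 6.33 in astrocytes, 3.69 to 5.86 in flowthrough), H2-Eb1 (0.457 to 1.03 in astrocytes, 0.403 to 1.04 in flowthrough), H2-DMb1 (0.0896 to 0.342 in astrocytes, 0.218 to 0.327 in flowthrough) and H2-Ab1 (0.0645 to 0.681 in astrocytes, 0.130 to 1.03 in flowthrough). These ratios were chosen after the values were seen and are given without a test.

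Animal 205 had the lowest flowthrough-to-astrocyte ratio of the 4 paired animals in class II, and in most of the other gene lists too. The summed CPM of the 10 class II genes was 570 in its astrocytes and 578 in its flowthrough, a flowthrough-to-astrocyte ratio of 1.01. The ratio was 5.40 in animal 201, 17.4 in 202 and 9.60 in 203. That of animal 205 was also the lowest for class I chains (2.05, others 3.41 to 4.93) and processing genes (0.723, others 1.31 to 2.49). The same held for genes of endosomal processing (0.783, others 1.81 to 5.92) and endothelial markers (0.535, others 0.842 to 2.09). It was not the lowest for the MHC and interferon regulators, T and NK cell markers or neutrophil markers. The microglial marker sum of animal 205 was 944 CPM in astrocytes and 10981 CPM in flowthrough, a ratio of 11.6, against 17.1, 25.8 and 19.2 in animals 201, 202 and 203. The microglial markers differed in flowthrough aKO 205. Tyrobp had 103825 counts, against 95463, 82820 and 34181 in flowthrough aKO 203, WT 201 and WT 202. C1qb had 33207 counts against 215336, 187122 and 95670, and Trem2 had 8507 against 46626, 44150 and 24147. The sum of 8 B cell markers in the flowthrough of animal 205 was 18.2 CPM, against 63.1 CPM in aKO 203, 80.01 CPM in WT 201 and 59.8 CPM in WT 202. Cd79b weighed most in it, at 235 counts against 2465, 2498 and 1323 in the same order. Pax5, with few counts, was not low there, at 13 counts against 5, 6 and 3. The sum of 9 dendritic cell markers was 69.1 CPM in the astrocytes of animal 205, the highest of that fraction, and 25.02 CPM in its flowthrough, the lowest. Its flowthrough-to-astrocyte ratio of dendritic cell markers was 0.362, against 2.08, 5.23 and 2.26 in animals 201, 202 and 203. Cd209a, the dendritic cell marker with the most counts in each flowthrough library, weighed most in these flowthrough sums. It had 307 counts in flowthrough aKO 205, against 2859, 3982 and 2440 in aKO 203, WT 201 and WT 202. Zbtb46 was not low in flowthrough aKO 205, at 137 counts against 108, 128 and 89. The low sum thus does not hold for every dendritic cell marker. The border macrophage marker sum of animal 205 was 405 CPM in astrocytes and 371 CPM in flowthrough, the highest of each fraction. Pf4 and Stab1 weighed most in its flowthrough sum, at 6035 and 3591 counts. Lyve1, Ms4a7 and Cbr2 had 174, 767 and 380 counts there, the lowest of the flowthrough libraries. The high sum thus does not hold for every border macrophage marker. Astrocyte WT 202 had the lowest sums of class II genes (132 CPM), border macrophage markers (56.1 CPM) and microglial markers (502 CPM) of the 8 astrocyte libraries. Without flowthrough aKO 205 and astrocyte WT 202, an exclusion chosen after the values were seen, 9 of 10 class II genes were still called lower.

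**Figure D3:**
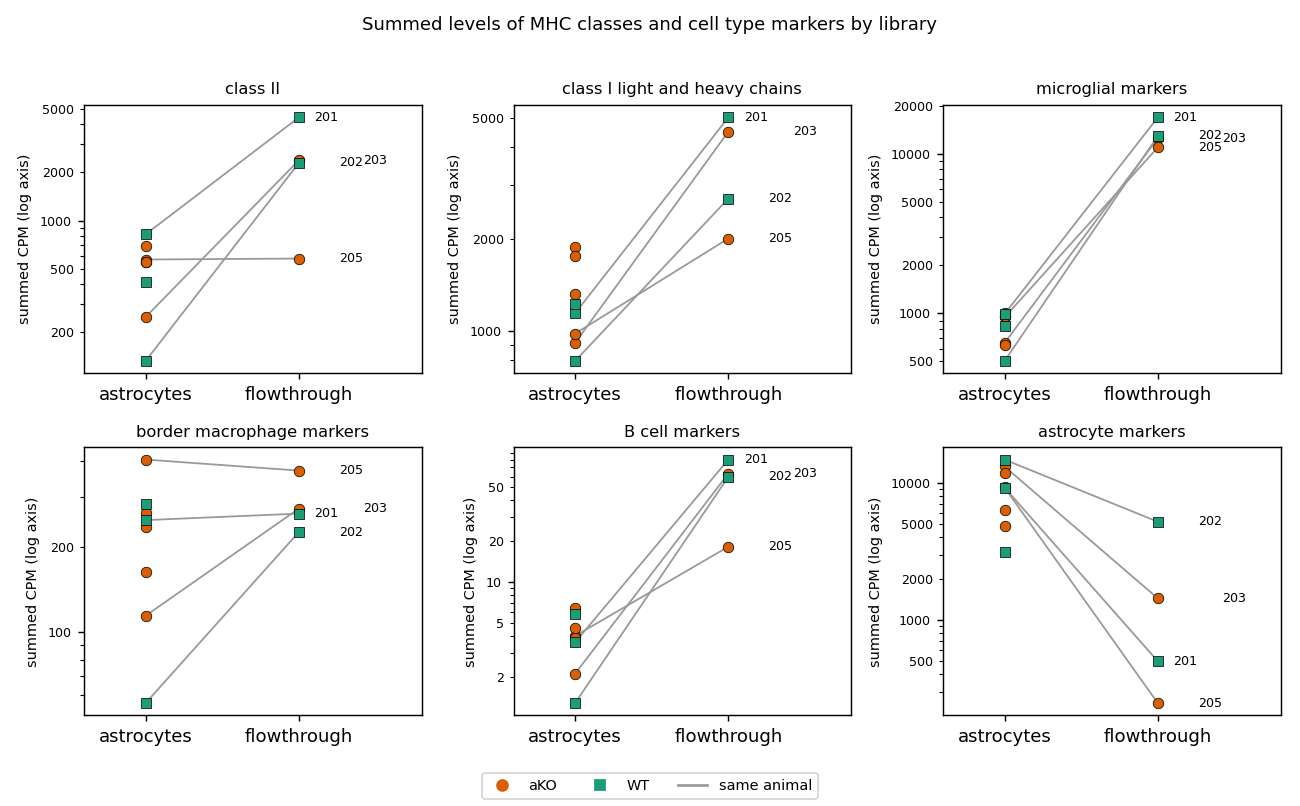
Summed CPM (y axis, log scale) of class II genes, class I chains and 4 sets of cell type markers in each library, astrocytes left and flowthrough right on the x axis; circles are aKO, squares are WT, and lines join the fractions of 1 animal, whose number is printed. The class II line of animal 205 is flat (570 and 578 CPM) while its microglial line climbs (944 and 10981 CPM).

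Markers of several other cell types, though not of all those listed, were lower in astrocytes too. All 16 microglial markers were called lower in astrocytes (median log2 fold change -4.25), as were 6 of 7 tested B cell markers (-3.35), 4 of 9 dendritic cell markers (-1.50), 7 of 8 T and NK cell markers (-4.05) and all 8 neutrophil markers (-4.33). Of 8 border macrophage markers 1 was called lower, or 3 with the animal block, with a median of -0.01. Of 8 endothelial markers 0 were called, with a median of -0.09. B cell marker sums were 1.28 to 6.46 CPM in astrocytes and 18.2 to 80.01 CPM in flowthrough, and those of border macrophages were 56.1 to 405 CPM in astrocytes and 225 to 371 CPM in flowthrough. No microglial, B cell or border macrophage marker was at 0 in all libraries of a fraction. Oligodendrocyte markers went the other way, with 6 of 8 called higher in astrocytes, a median of 1.84 and sums of 3311 to 21351 CPM in astrocytes and 782 to 6322 CPM in flowthrough. The mitochondrial share of counts was 11.1 to 36.5% in astrocytes and 4.81 to 12.9% in flowthrough, with 32.7% in astrocyte WT 202. The part of these cells and of the mitochondrial share in the class II difference was not tested.

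Of the class I chains, B2m, H2-M3 and H2-T23 were called lower in astrocytes. B2m, the light chain of every class I molecule, had 672, 522, 1034, 1092 and 1514 CPM in aKO astrocytes 203, 205, 208, 221 and 222, and 838, 648 and 1051 CPM in WT astrocytes 201, 202 and 265. Its flowthrough levels were 3977 and 1628 CPM in aKO 203 and 205 and 4404 and 2195 CPM in WT 201 and 202. The fractions did not overlap (log2 fold change -1.94, SE 0.45, edgeR adjusted p = 0.00687). H2-M3, which presents formylated peptides, ranged from 4.06 to 16.7 CPM in astrocytes and had 47.8, 11.0, 55.6 and 40.5 CPM in flowthrough aKO 203, aKO 205, WT 201 and WT 202 (-1.91, SE 0.38, edgeR adjusted p = 0.00240). H2-T23, which encodes Qa-1, a ligand of NK cell receptors, ranged from 28.5 to 107 CPM in astrocytes and had 156, 47.4, 234 and 172 CPM in flowthrough in that order (-1.58, SE 0.38, edgeR adjusted p = 0.00938). In both genes flowthrough aKO 205 lay within the astrocyte range.

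The polymorphic chain H2-K1 ranged from 40.1 to 153 CPM in astrocytes and from 119 to 135 CPM in flowthrough, with an estimate of -0.82 (SE 0.32, edgeR adjusted p = 0.0898). H2-D1 ranged from 20.5 to 423 CPM in astrocytes and from 89.3 to 164 CPM in flowthrough, with -1.07 (SE 0.50, 0.156). The Qa-2 family genes H2-Q6 and H2-Q7 gave -0.13 (SE 0.32) and -0.81 (SE 0.33), H2-Q4 gave -0.72 (SE 0.37), and H2-Q10, at 1.70 CPM or less in every library, gave -1.49 (SE 0.58). H2-T22 and H2-T24 gave -0.25 (SE 0.38) and -0.47 (SE 0.34). The edgeR adjusted p of these 8 genes ran from 0.0896 to 0.815. Astrocytes reached the flowthrough range in all of them. The ratio of B2m to H2-K1 in RPKM overlapped between fractions, at 10.7 to 69.2 in astrocytes and 41.3 to 112 in flowthrough. Several of these genes are near copies of each other, and how reads shared between them were counted is not given in the sources used here.

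With the animal as a block over the 4 animals that gave both fractions, 7 of 11 class I chains were called lower, against 3 in the fit of all 12 libraries and 5 without a block in those same 8 libraries. Calls rose over all genes too. The block called 2745 of 20189 genes lower, against 1759 of 20637 in the fit of 12 libraries and 2013 of 20189 without a block. In those 8 libraries H2-D1 and H2-Q10 passed without a block (edgeR adjusted p = 0.0220 and 0.0339) and with it (-1.59, 0.00612, and -2.10, 0.0222). H2-Q4 and H2-Q7 passed with the block (-1.12, edgeR adjusted p = 0.0393, and -1.16, 0.0189) and not without it (0.0791 and 0.0793). Without flowthrough WT 201 the calls of B2m (edgeR adjusted p = 0.0571) and H2-T23 (0.0547) were lost, leaving 1 class I chain. Without flowthrough aKO 203 that of H2-T23 was lost (0.0714), and H2-M3 stood at -1.27.

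**Figure D4:**
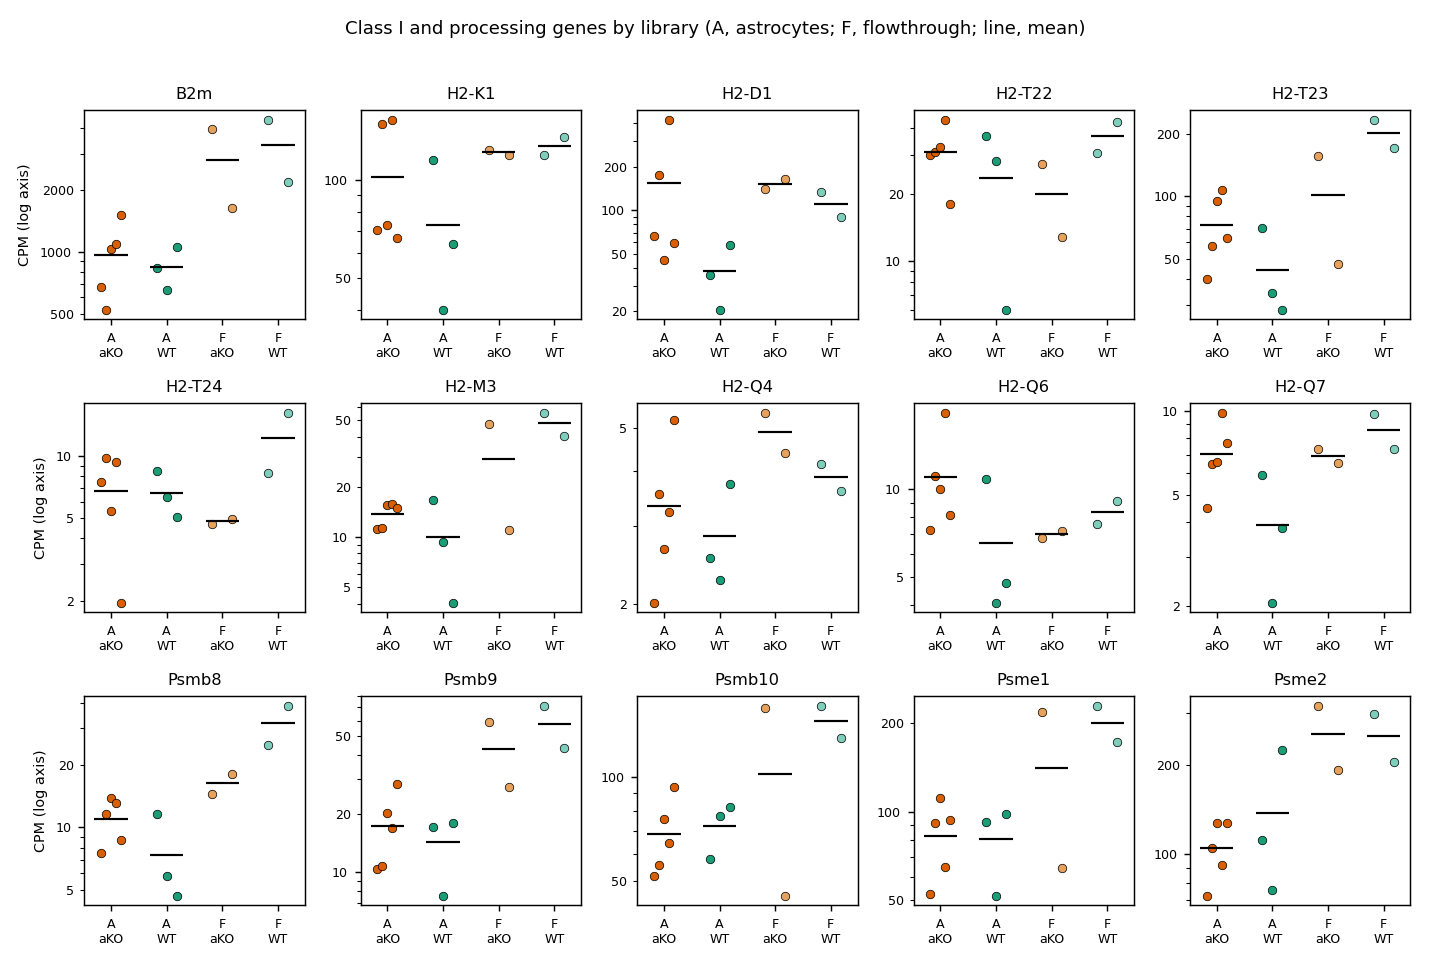
CPM (y axis, log scale, own range in each panel) of 10 class I chains and 5 proteasome genes in each library, by fraction and genotype on the x axis; points are libraries and lines are group means. B2m and Psmb8 are lower in all 8 astrocyte libraries than in the 4 flowthrough libraries, while H2-D1 spans 20.5 to 423 CPM within astrocytes.

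Among the processing genes, Psmb8, Psmb9, Psme1 and Psme2 of the interferon-inducible proteasome were called lower, and no transporter or loading gene was. Psmb8, a catalytic subunit of the immunoproteasome, had 7.56, 11.6, 13.9, 13.1 and 8.66 CPM in aKO astrocytes 203, 205, 208, 221 and 222, and 11.6, 5.81 and 4.70 CPM in WT astrocytes 201, 202 and 265. In flowthrough it had 14.5 and 18.1 CPM in aKO 203 and 205 and 24.9 and 38.6 CPM in WT 201 and 202, above all astrocyte libraries (log2 fold change -1.60, SE 0.28, edgeR adjusted p = 0.000981). Psmb9, another such subunit, ranged from 7.60 to 28.4 CPM in astrocytes and had 58.7, 27.3, 71.5 and 43.5 CPM in flowthrough aKO 203, aKO 205, WT 201 and WT 202 (-1.87, SE 0.39, edgeR adjusted p = 0.00336). Aside from flowthrough aKO 205, the fractions were apart. Psme1 and Psme2, the subunits of the PA28 activator cap, gave -1.26 (SE 0.37, edgeR adjusted p = 0.0279) and -1.29 (SE 0.38, 0.0261). Psmb10, the third inducible subunit, gave -0.98 (SE 0.38, 0.0840) and passed in the 8 libraries of the paired animals, both without the animal block (-1.32, edgeR adjusted p = 0.0494) and with it (-1.23, 0.0363). Psme1 was called in 15 and Psme2 in 16 of 21 alternatives, and without flowthrough WT 201 they stood at edgeR adjusted p = 0.142 and 0.144. Without flowthrough aKO 203 the edgeR adjusted p was 0.184 for Psme1 and 0.0716 for Psme2. Their calls were also lost without astrocyte WT 201 (edgeR adjusted p = 0.0548 for Psme1 and 0.0637 for Psme2) and without astrocyte WT 202 (0.0746 and 0.0729). That of Psme1 was lost without astrocyte aKO 203 (0.0504) or aKO 221 (0.0507) too.

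The TAP transporter subunits Tap1 and Tap2 gave -1.03 (SE 0.40) and -0.31 (SE 0.34), the first with an edgeR adjusted p of 0.0819 and the second 0.559. Tap1 ranged from 1.55 to 10.1 CPM in astrocytes and from 6.12 to 10.3 CPM in flowthrough. Its exons overlap those of Psmb9 on the opposite strand, and whether counting used strand is not given in the sources used here. Tapbp, or tapasin, which bridges TAP and the heavy chain, gave -0.79 (SE 0.30, 0.0756). Pdia3, an oxidoreductase of the loading complex, gave -0.96 (SE 0.41, 0.116). In the 8 libraries of the paired animals Pdia3 passed with the animal block (-1.22, edgeR adjusted p = 0.0216) and not without it (0.117). Erap1, which trims peptides, and Calr gave -0.15 (SE 0.39, 0.827) and 0.14 (SE 0.38, 0.833). The class I transactivator Nlrc5 gave -0.66 (SE 0.43, 0.307). Calr was the one estimate above 0, and it turned to -0.12 without astrocyte WT 201.

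Within a library, each inducible proteasome subunit can be set against the constitutive subunit whose place it takes. The ratio of Psmb10 to Psmb7 in RPKM was 0.392 to 0.546 in astrocytes and 0.735 to 1.07 in flowthrough, without overlap. The mean log2 difference was -0.95, with an exact two-sided permutation p of 0.00202, the smallest that 8 against 4 libraries allow, and 0.00606 adjusted over the 3 ratios. The highest ratio, 1.07, was that of flowthrough aKO 205, where both genes were low. Psmb7 had 1338 counts there, against 6432 to 11163 in the other flowthrough libraries, and Psmb10 had 1498 against 4990 to 8589. In animal 205 the flowthrough-to-astrocyte ratio of Psmb10 itself was 0.818. Psmb9 to Psmb6 was 0.0127 to 0.0325 in astrocytes and 0.0190 to 0.0578 in flowthrough (difference -0.83, exact permutation p = 0.0404, adjusted 0.0606). Psmb8 to Psmb5 was 0.0152 to 0.0741 in astrocytes and 0.0466 to 0.177 in flowthrough (-0.93, exact permutation p = 0.0788, adjusted 0.0788). The 12 libraries came from 8 animals, so these permutations treat paired libraries as separate. Over the 4 paired animals the exact sign-flip p was 0.125 for Psmb10 to Psmb7 and for Psmb9 to Psmb6, the smallest that 4 pairs allow, and 0.375 for Psmb8 to Psmb5.

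The 14 constitutive proteasome genes held 0 calls in either direction by edgeR, with a median of -0.65 and 3 at an unadjusted p under 0.05. Psmb5, Psmb6 and Psmb7, the constitutive catalytic subunits, gave -0.58 (SE 0.35, edgeR adjusted p = 0.273), -0.97 (SE 0.37, 0.0818) and -0.13 (SE 0.40, 0.850). With the animal block 6 of the 14 were called lower, where 2745 of 20189 genes were.

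Further genes of the pathway were listed by role. Of 6 genes of endosomal processing 4 were called lower, among them Ctss, the protease that trims the invariant chain (log2 fold change -4.54, SE 0.52, edgeR adjusted p = 1.62e-05), Ifi30, a thiol reductase (-2.72, SE 0.40, 0.000162), and Lgmn, an asparaginyl protease (-2.66, SE 0.47, 0.000948). Of 7 costimulation and checkpoint ligands 3 were called lower, namely Cd86 (-3.91, SE 0.40, 6.90e-06), Icam1 (-1.99, SE 0.40, 0.00257) and Cd80 (-2.96, SE 0.61, 0.00307). Of 17 regulators 6 were called lower, led by Irf8, a myeloid and B cell transcription factor (-4.38, SE 0.39, 2.95e-06), and by Ifngr1 and Ifngr2, the subunits of the interferon gamma receptor (-2.32, SE 0.40, 0.000718, and -1.57, SE 0.27, 0.000837). Of 7 endoplasmic reticulum partners 1 passed, the tapasin-related Tapbpl (-1.12, SE 0.33, 0.0259). Of 9 tested class I-like genes 2 passed, Hfe (-1.11, SE 0.37, 0.0478) and H2-M2 (-3.57, SE 1.17, 0.0455), the second at 0.494 CPM or less in every library. In the 8 libraries of the paired animals with the animal block, 3 of 6 endosomal genes and 5 of 17 regulators were called lower, and 1 class I-like gene was called lower and 1 higher. H2-T3 did not pass the filter on low counts. In the fit of 12 libraries none of these genes was called higher, and the part in them of the microglia, whose markers were lower as given above, was not tested.

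Counted without a model, 7 of the 33 genes were lower in all 8 astrocyte libraries than in any flowthrough library, against 4.51% of all genes tested, and 0 were higher without overlap, against 6.34%. They were B2m, Psmb8, H2-Ab1, H2-Eb1, H2-DMa, H2-Oa and H2-Ob. Within the 4 paired animals, 14 of 33 genes were lower in astrocytes in each animal, against 14.5% of all genes. They comprised 4 of 11 class I chains, 4 of 12 processing genes and 6 of 10 class II genes. In animal 205, Cd74, H2-DMb1 and H2-DMb2 were the class II genes that were higher in astrocytes, at 359, 20.4 and 2.63 CPM in astrocytes and 255, 17.7 and 2.15 CPM in flowthrough.

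The comparison of the study's design sets aKO against WT astrocytes. None of the 33 genes was called in either direction by edgeR, where 0.0264% of 18950 genes were called (0.0211% higher and 0.00528% lower), and their adjusted p-values were all 0.9997. DESeq2 and limma voom called none of the members named below either, and 11 and 6 genes in all. Of the 33 genes, 1 had an unadjusted p under 0.05, against 299 of all genes. Estimates were above 0 for 25 of 33 genes. The median log2 fold change was 0.44 for class I chains, 0.16 for processing genes and 0.23 for class II, against 0.02 over all genes. Of 7 tested dendritic cell markers 6 were above 0, with a median of 0.89. The median was 0.86 for 8 oligodendrocyte markers, 0.43 for 8 endothelial markers, 0.34 for 8 border macrophage markers, 0.32 for 7 tested T and NK cell markers, 0.19 for 4 tested B cell markers and 0.06 for 16 microglial markers. It was -0.13 for 12 astrocyte markers and -0.42 for 7 tested neutrophil markers. None of these markers was called by edgeR, where 1 endothelial and 1 oligodendrocyte marker had an unadjusted p under 0.05. Their part was not tested. A p that misses the threshold does not show that the groups are alike.

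H2-D1 was the gene with the unadjusted p under 0.05. It had 66.1, 175, 45.3, 423 and 59.0 CPM in aKO astrocytes 203, 205, 208, 221 and 222, against 35.4, 20.5 and 57.4 CPM in WT astrocytes 201, 202 and 265. The groups overlapped, and aKO 221 and 205 were the high libraries. The log2 fold change was 1.78 (SE 0.67, edgeR unadjusted p = 0.0179, adjusted p = 0.9997), and 0.97 without aKO 221. In aKO 221 the ratio of H2-D1 to H2-K1 in RPKM was 2.80, against 0.311 to 1.19 in the other 7 astrocyte libraries.

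The Qa-2 genes H2-Q7 and H2-Q6 gave 0.79 (SE 0.42) and 0.67 (SE 0.39). H2-Q7 had 4.49, 6.48, 6.61, 9.90 and 7.70 CPM in aKO astrocytes 203, 205, 208, 221 and 222, against 5.89, 2.05 and 3.82 CPM in WT astrocytes 201, 202 and 265. Only aKO 203 lay within the WT range. Among the processing genes the smallest p-values belonged to Psmb8 (0.51, SE 0.36), Psme2 (-0.53, SE 0.45) and Pdia3 (0.50, SE 0.49). Among class II genes they belonged to H2-DMb2 (0.64, SE 0.53), H2-Oa (-0.63, SE 0.66) and H2-DMb1 (0.25, SE 0.44). Psme2 and H2-Oa each had 1 high WT library, 265, at 225 CPM for Psme2 and 2.41 CPM for H2-Oa. Without it both estimates turned, to 0.18 and 0.48.

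**Figure D5:**
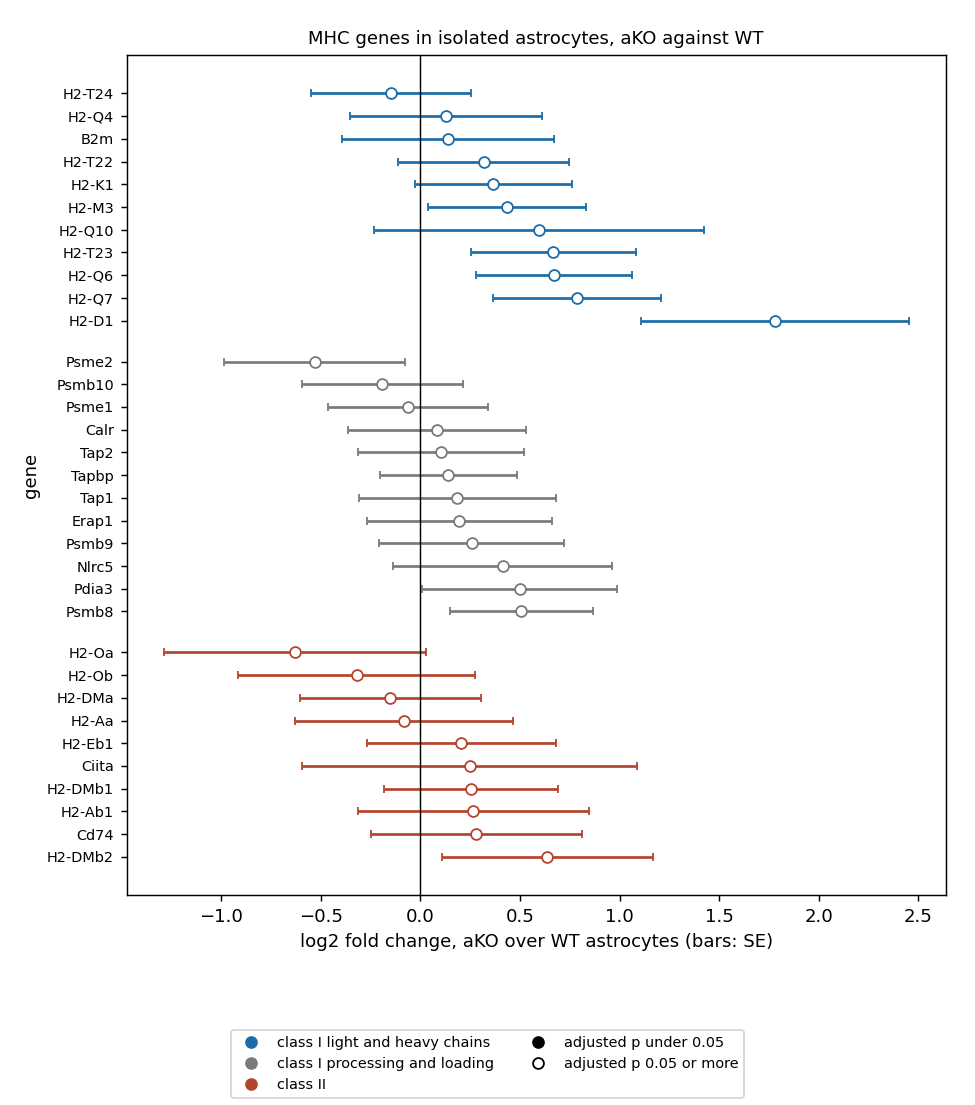
Log2 fold change (x axis) of each of the 33 genes (y axis) in aKO over WT astrocytes, with bars for the SE, 5 against 3 libraries; open points have an edgeR adjusted p of 0.05 or more. All points are open, and H2-D1 at 1.78 lies farthest from 0.

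Summed over the 10 class II genes, aKO astrocytes had 248, 570, 692, 552 and 547 CPM in 203, 205, 208, 221 and 222, against 818, 132 and 412 CPM in WT 201, 202 and 265. The WT libraries spanned a wider range than the aKO libraries and held both the highest and the lowest value. The 11 class I chains summed to 912, 978, 1321, 1876 and 1758 CPM in the same aKO libraries, against 1141, 796 and 1228 CPM in the WT libraries. None of the 33 genes kept the genotypes apart, where 1.07% of all genes were higher and 0.343% lower without overlap. With library 202 counted as aKO, the H2-D1 estimate was 1.29 and no gene of any kind was called. The proteasome ratios gave no difference past the threshold between aKO and WT astrocytes, with exact permutation p-values of 0.179 for Psmb8 to Psmb5 and Psmb9 to Psmb6 and 0.571 for Psmb10 to Psmb7, adjusted 0.268, 0.268 and 0.571 over the 3 ratios.

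In flowthrough, 2 aKO libraries stood against 2 WT libraries. None of the 33 genes, and 0% of 20637 genes, was called by edgeR. No member had an unadjusted p under 0.05, against 817 of all genes, and DESeq2 called 1 gene and limma voom 0 of all genes. Class II estimates were below 0 for 9 of 10 genes, with a median of -0.82, against 0.07 over all genes. Cd74 had 1342 and 255 CPM in aKO 203 and 205, against 2787 and 1382 CPM in WT 201 and 202 (log2 fold change -1.19, SE 0.84). H2-DMb2 had 9.86 and 2.15 CPM in aKO against 18.7 and 10.1 CPM in WT (-1.06, SE 0.70), and H2-Eb1 had 123 and 60.6 CPM in aKO against 315 and 152 CPM in WT (-1.13, SE 0.71). In these 3 genes both aKO libraries were below both WT libraries. That held for 12 of the 33 genes, with 3 higher in both aKO libraries, where 20.3% of all genes were lower and 12.4% higher in this way. The size of the class II estimates moved with single libraries. The Cd74 estimate was -2.73 without aKO 203, -0.55 without aKO 205 and -0.55 without WT 201. That of H2-DMb2 was -2.43 without aKO 203, -0.46 without aKO 205 and -0.50 without WT 201. For H2-Eb1 it was -1.64 without aKO 203 and -0.45 without WT 201. In flowthrough the astrocyte marker sum was 1436 and 247 CPM in aKO 203 and 205 and 499 and 5201 CPM in WT 201 and 202, and the B cell marker sums given above were 63.1 and 18.2 CPM in aKO against 80.01 and 59.8 CPM in WT. Dendritic cell marker sums were 72.2 and 25.02 CPM in aKO against 120 and 86.6 CPM in WT, though 4 of the 9 markers had estimates above 0. Border macrophage marker sums went the other way, at 272 and 371 CPM in aKO against 261 and 225 CPM in WT. The median estimate of those 8 markers was 0.11, with Pf4 (1.29) and Stab1 (0.67) the highest and F13a1 (-0.03) the 1 below 0. The median estimate was 0.90 for 8 neutrophil markers and -0.11 for 16 microglial markers. The part of these cells was not tested.

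Among class I chains in flowthrough, the smallest p-values belonged to H2-T24 (-1.02, SE 0.56), H2-T23 (-0.78, SE 0.64) and H2-Q4 (0.61, SE 0.60). H2-T24 had 4.72 and 4.97 CPM in aKO 203 and 205, against 8.27 and 16.2 CPM in WT 201 and 202. Among processing genes they belonged to Calr (-0.88, SE 0.61), Psmb8 (-0.65, SE 0.47) and Pdia3 (0.78, SE 0.68). Their edgeR adjusted p-values were 0.804 or more.

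The difference between fractions in the genotype effect, taken as astrocytes minus flowthrough, was called for none of the 33 genes and for 0% of 20637 genes by edgeR, with no member and 499 genes at an unadjusted p under 0.05. DESeq2 and limma voom called 0 genes as well, and 1 gene, not a member, passed with the animal block. The differences with the smallest p-values were 1.44 for H2-T23 (SE 0.80), 0.87 for H2-T24 (SE 0.69) and 0.83 for H2-Q7 (SE 0.67) among class I chains. They were 1.14 for Psmb8 (SE 0.59), 0.94 for Calr (SE 0.76) and -0.76 for Psme2 (SE 0.77) among processing genes, and 1.67 for H2-DMb2 (SE 0.88), 1.34 for H2-Eb1 (SE 0.88) and 1.47 for Cd74 (SE 1.04) among class II genes. Without flowthrough aKO 203 the differences were 3.00 for Cd74, 3.05 for H2-DMb2 and 2.44 for H2-T23, and without flowthrough WT 201 they were 0.82, 1.12 and 1.16. Of all 33 estimates, 26 were above 0, and their edgeR adjusted p-values were 0.956 or more.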

How the data were processed

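RNA was sequenced from 12 libraries of 8 mice. The tools named in the submitters' processing notes are STAR 2.5.1a, featureCounts 1.4.6-p5 (Subread) and bcl2fastq, and the build is GRCm38; settings for strand and shared reads are not given in the sources used here. The authors deposited, per gene, raw counts, CPM and RPKM; the file headers name the columns. Recomputed from the counts, CPM (scaled to the file's total count) and RPKM (CPM per kilobase of the listed gene length) differed from the deposited values by at most 5.5e-10.

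The 33 members and the lists of pathway and marker genes were chosen with earlier results of these data known. Gene names came from a table of Ensembl identifiers (40254 of 41388 matched), and library groups from the titles. The named genes were every member in the fraction comparison, the 3 with the smallest p per role elsewhere, and up to 3 per pathway list.

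The test was that of edgeR 4.0.16, run under R 4.3.3 on the counts (TMM scaling, minimum count 10, robust quasi-likelihood test, Benjamini-Hochberg adjustment over all genes tested, threshold 0.05). Genotype in astrocytes was fitted on 8 libraries. The other comparisons used 4 groups over 12 libraries, with both genotypes weighted equally between fractions. TMM factors ran from 0.854 to 1.43 in astrocytes and 0.754 to 1.05 in flowthrough; printed CPM are unscaled. Alternatives were DESeq2 1.42.0 and its size factors, limma 3.58.1 voom with sample weights, no count filter, each library left out, library 202 as aKO, libraries 222 and 265 left out, all 12 libraries in 1 genotype fit, and an animal block. The shared numbers mark the same brain in both fractions, and the deviations of an animal's fractions from their groups had a Pearson r over 20637 genes of 0.0823 in 201, 0.424 in 202, 0.166 in 203 and 0.404 in 205. The labels number separate animals within each group. RefSeq promoter windows were scanned for exact motif matches.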

Additional observations from a re-analysis of the deposited data

How the results depend on the processing

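Of the class II genes, 9 of 10 were called lower in astrocytes under every alternative tried, except 8 without flowthrough aKO 203. Calls over all 33 genes ranged from 12 (without flowthrough WT 201 and without flowthrough aKO 203) to 22 (animal block). Class I chains called lower were 5 by DESeq2, 5 without aKO 222 and WT 265, 7 with the animal as a replicate block, 5 in the same 8 libraries without it, and 1 to 4 with single libraries left out. Processing genes called lower were 2 to 5 with single libraries left out. Psme2 also lost its call without flowthrough aKO 205 and astrocyte WT 202 (edgeR adjusted p = 0.0900), and Psmb9 stood at -2.48 in the 8 libraries without the block. Against the 12 libraries, the 8 libraries of the paired animals gained 6 calls with the block and lost none of the 16. Over all genes, 2745 of 20189 were called lower with the block, against 1759 of 20637 in the 12 libraries. Without the block they already held 19 calls, H2-D1, H2-Q10 and Psmb10 among them, and H2-Q4, H2-Q7 and Pdia3 passed only with it.

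Small estimates that changed sign, as astrocyte over flowthrough log2 fold changes, were H2-T22, at 0.026 without 222 and 265 and -0.43 to 0.015 with single libraries left out, H2-Q6, at 0.057 without flowthrough aKO 205 and astrocyte WT 202, Erap1, at 0.11 without 222 and 265, 0.22 with the block, 0.22 without it and -0.32 to 0.0015 with single libraries left out, and Calr, at -0.12 to 0.33 with single libraries left out. For aKO against WT astrocytes they were H2-Oa, at 0.34 without 222 and 265 and -1.01 to 0.48 with single libraries left out, H2-DMb1, at -0.26 with 202 as aKO and -0.10 to 0.92, and Psme2, at -0.81 to 0.18. Log2 ratio differences ranged from -1.28 to -0.64 for Psmb8 to Psmb5 and -1.16 to -0.62 for Psmb9 to Psmb6 between fractions, and from -0.18 to 0.046 for Psmb10 to Psmb7 between genotypes. The cause was not tested.

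Over all genes, the fraction comparison called 3517 genes, against 5951 with the block in 8 libraries, 3562 in those libraries without it, 1691 without flowthrough WT 201, 2136 without flowthrough aKO 205 and 1544 without flowthrough aKO 205 and astrocyte WT 202. The genotype comparison in astrocytes called 5, against 11 by DESeq2, 8 without the count filter, 2 without aKO 205, 0 without WT 201, 3 without WT 265, 3 without 222 and 265, 1 in the fit of 12 libraries and 0 with 202 as aKO. Without the count filter flowthrough gave 45 calls and the difference between fractions 40, both 0 with it. With 2 flowthrough libraries a genotype, a library left out leaves a lone one that is assumed to vary like the other groups. Members under about 1 CPM, such as Ciita and H2-Q10, rest on few counts.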
